A study of Bos taurus with 12 samples.

Results

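The aryl hydrocarbon receptor response is described here through 5 genes, chosen by name: the receptor AHR, its repressor AHRR, the cytochrome P450 enzymes CYP1A1 and CYP1B1, and the ADP-ribosyltransferase TIPARP. They are 5 of 17983 gene rows, and each symbol had a single row in the count table. The samples were bovine (Bos taurus) cumulus-oocyte complexes, units of an oocyte and the cumulus granulosa cells around it, matured in vitro in groups of 50. In the Nanoplastics group (n = 6) the medium held 3 µg/mL of polystyrene nanoplastics with a size of 50 nm. The Control group (n = 6) was matured in control medium. The samples came from 3 batches of bovine material. Which sample belonged to which batch, and the age and breed of the animals, were not known from the labels.

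AHR is a ligand-activated transcription factor that waits in the cytoplasm in a complex with HSP90 chaperones. Once a planar aromatic compound or an indole derived from tryptophan is bound, it enters the nucleus, pairs with ARNT and switches on CYP1A1, CYP1B1, TIPARP and AHRR. AHRR competes with AHR for ARNT, and TIPARP attaches ADP-ribose to AHR, so both limit the response. In the ovary the receptor is known, mainly from mice, for its part in follicle growth and in the loss of oocytes after exposure to polycyclic aromatic hydrocarbons. ARNT is also the partner of HIF1A, through which low oxygen acts on genes such as VEGFA.

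None of the 5 transcripts differed between the groups beyond the spread between libraries, and every pair of groups overlapped. The largest fold changes were those of CYP1B1, at 1.15-fold of control (95% interval 0.817 to 1.63), and CYP1A1, at 0.904-fold (0.639 to 1.28). Within both groups, however, CYP1A1 and TIPARP varied from library to library in opposite directions. Their levels went with the genes of the oxygen response, CYP1A1 being lowest and TIPARP highest in the libraries where those genes were highest. They also went with the cumulus markers and with HBA and HBM, the tested genes of a red blood cell marker list. HBB, another gene of that list, had 0 counts in every library, and whether red blood cells were present was not tested. How many other genes follow the same pattern was not counted, so it is not shown to be particular to AHR targets. The relation of TIPARP to the oxygen genes lost its adjusted p under 0.05 when any of 10 of the 12 libraries was left out, and that of CYP1A1 when any of 3 was.

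The libraries held 14167578 to 18684140 counts in the Nanoplastics group and 15873865 to 20008464 in the Control group, at 13879 to 14176 and 13852 to 14224 gene rows with at least 1 count. All 13 oocyte and all 12 cumulus and granulosa markers in the table were expressed enough to be tested. Levels are given as CPM, counts relative to the total of their library, after TMM scaling, a normalisation that sets a scale factor for each library. That factor does not correct for the mix of cells in a library. CPM is not corrected for transcript length, so levels are compared between libraries and not between genes. Across 12311 tested genes, edgeR's quasi-likelihood test called 0 genes at an adjusted p of 0.05, which is 0% of those tested, and 259 genes (2.1%) had an unadjusted p under 0.05. Of the 5 genes 0 were in either count. DESeq2 likewise called 0 of 15496 genes, with 319 (2.06%) under the unadjusted level, and limma-voom 0 of 12311, with 232 (1.88%).

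AHR, the receptor itself, stood at 15.2 to 18.2 CPM (median 16.1) in Nanoplastics libraries and at 14.8 to 20.2 CPM (median 16.3) in Control libraries. The 2 highest values were Control 1 at 19.3 CPM and Control 2 at 20.2 CPM, and the other 4 Control libraries lay within or below the Nanoplastics range. The means were 16.5 ± 1.19 CPM in Nanoplastics and 17.1 ± 2.15 CPM in Control libraries (SD, n = 6 each). The log2 fold change was −0.05 (SE 0.09, 95% interval −0.25 to 0.14; edgeR, adjusted p = 0.999), and without Control 2 it was −0.00326. Read from the interval, AHR in Nanoplastics libraries lay between 0.843 and 1.11 times its Control level. In bulk RNA of this kind, fewer cells of a type and less RNA per cell cannot be told apart, nor can oocyte and cumulus sources of a transcript. Another locus, LOC112446489, overlaps AHR in the RefSeq gene table, and the labels do not say whether reads were counted by strand.

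AHRR, the repressor, was counted only 19 to 39 times per library. Nanoplastics libraries held 1.07 to 1.94 CPM (median 1.54) and Control libraries 1.21 to 1.96 CPM (median 1.57). Exactly 3 Nanoplastics libraries lay above the Control median and 3 below. The log2 fold change was −0.10 (SE 0.21, 95% interval −0.55 to 0.34; edgeR, adjusted p = 0.999), and it lay between −0.20 and −0.03 when 1 library was left out. The SD of log2 CPM within groups was 0.30, against 0.28 from counting noise alone at its mean count of 26.6. Its RefSeq locus overlaps another one, LOC132343264.

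CYP1A1, the enzyme whose induction is the usual readout of active AHR, was present in every library. It stood at 5.72 to 18.5 CPM (median 11.3) in Nanoplastics libraries and at 9.91 to 18.0 CPM (median 12.8) in Control libraries. Nanoplastics 1 was the lowest of all at 97 counts, and Nanoplastics 3 the highest at 18.5 CPM, so the Nanoplastics group spanned the entire Control range. The means were 12.1 ± 4.68 CPM in Nanoplastics and 13.3 ± 3.39 CPM in Control libraries (SD, n = 6 each). The log2 fold change was −0.15 (SE 0.24, 95% interval −0.65 to 0.36; edgeR, adjusted p = 0.999). That value rested on Nanoplastics 1, without which it was 0.00260. The upper end of the interval, 1.28-fold, is the largest increase it leaves room for. CYP1A2, the neighbouring gene and closest relative of CYP1A1, had 0 counts in all 12 libraries. Taken alone, a library with 0 counts allows up to 3 counts, or 0.212 CPM in the smallest library. The 12 libraries together allow less.

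CYP1B1, which oxidises oestradiol and polycyclic hydrocarbons, stood at 2.56 to 4.43 CPM (median 3.63) in Nanoplastics libraries and at 1.82 to 5.29 CPM (median 3.04) in Control libraries. Of the Nanoplastics libraries 5 lay above the Control median, yet the highest value of all was Control 1 at 101 counts. The means were 3.60 ± 0.696 CPM in Nanoplastics and 3.12 ± 1.24 CPM in Control libraries (SD, n = 6 each). The log2 fold change was 0.20 (SE 0.23, 95% interval −0.29 to 0.70; edgeR, adjusted p = 0.999). Without Control 1 it was 0.42 (95% interval −0.01 to 0.85; edgeR, unadjusted p = 0.0562, adjusted p = 0.999), and without Control 4 or Control 5, the libraries with the lowest values, it was 0.09 or 0.11.

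TIPARP, also called PARP7, stood at 95.3 to 148.5 CPM (median 115) in Nanoplastics libraries and at 94.0 to 143.0 CPM (median 108) in Control libraries. The Nanoplastics libraries fell apart into 1, 2 and 5, at 128.7 CPM or more, and 3, 4 and 6, at 101 CPM or less. Among the Control libraries, Control 2 stood highest at 143.0 CPM. The means were 119 ± 23.9 CPM in Nanoplastics and 112 ± 17.3 CPM in Control libraries (SD, n = 6 each), and the log2 fold change was 0.09 (SE 0.13, 95% interval −0.18 to 0.36; edgeR, adjusted p = 0.999). It was 0.0155 without Nanoplastics 5 and 0.17 without Control 2, the ends of the range with 1 library left out.

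**Figure D1:**
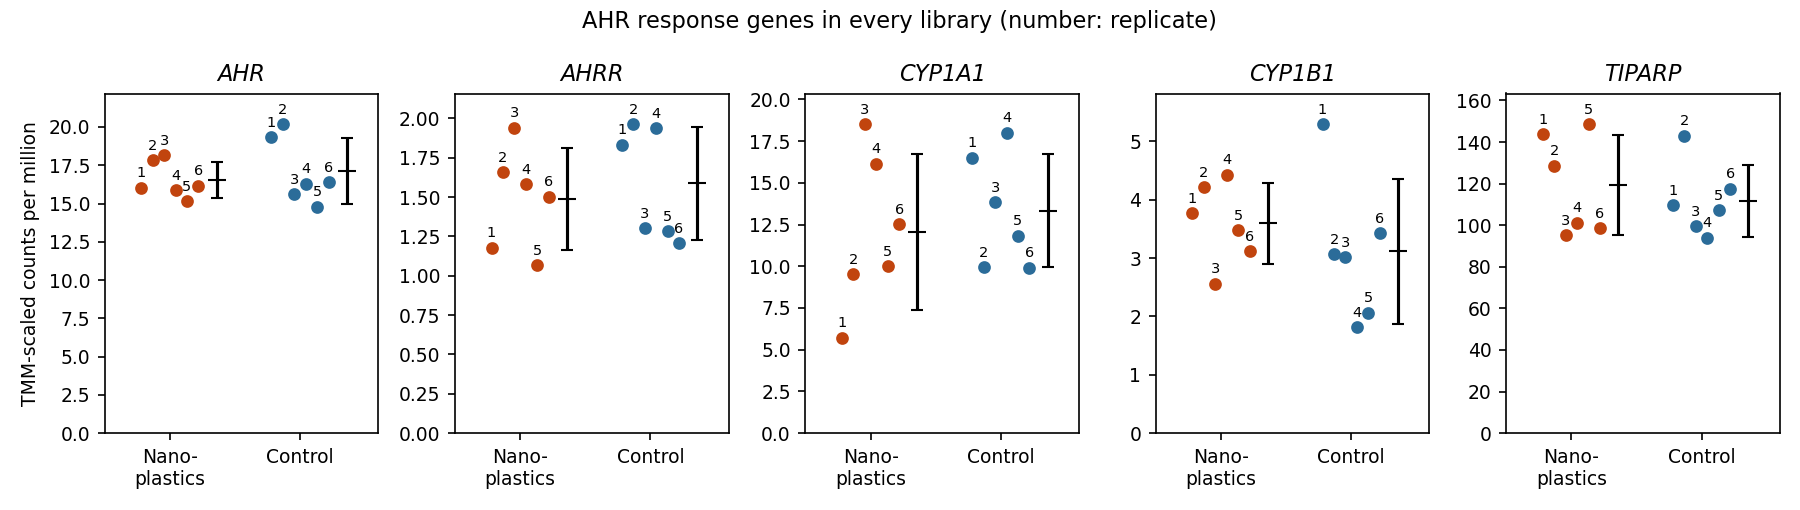
CPM after TMM scaling (y axis, from 0, a scale of its own for each gene) of the 5 genes in each of 6 Nanoplastics and 6 Control libraries; points carry the replicate number, and the dash with bars is the mean ± SD. The groups overlap for every gene, and Nanoplastics 1 has the lowest CYP1A1 value at 5.72 CPM.

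**Figure D2:**
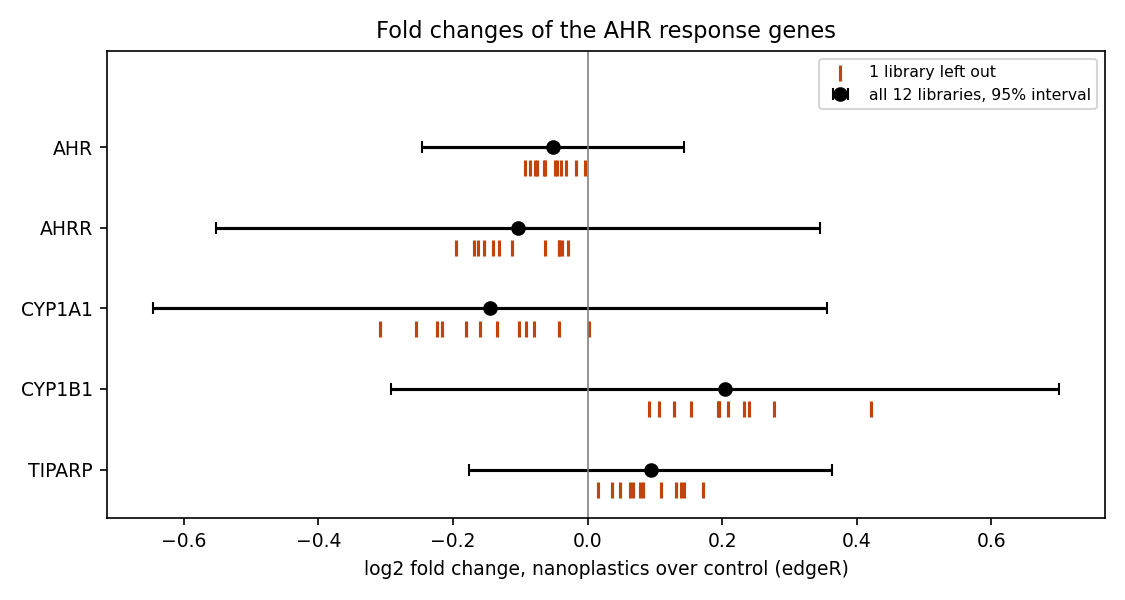
Log2 fold change of each gene (x axis, nanoplastics over control) in edgeR over all 12 libraries with its 95% interval (black), and with 1 library left out (red ticks, 12 per gene). All 5 intervals include 0, and the CYP1A1 tick just above 0 is the fit without Nanoplastics 1.

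All 5 genes have an adjusted p of 0.999928 in the authors' deposited table. Their log2 fold changes in the authors' deposited table were −0.06 for AHR, −0.11 for AHRR, −0.15 for CYP1A1, 0.20 for CYP1B1 and 0.09 for TIPARP.

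The 5 genes differed in how much they varied between libraries of the same group. The within-group SD of log2 CPM was 0.14 for AHR, lower than that of most tested genes, with 33.2% of them below it. It was 0.50 for CYP1A1, above 92.7% of tested genes and far above the 0.10 expected from counting noise. For CYP1B1 it was 0.42 against 0.19 from counting, and for TIPARP 0.25 against 0.03. In the Nanoplastics group the highest CYP1A1 level was 3.24 times the lowest, and in the Control group 1.82 times. For AHR the corresponding ratios were 1.20 and 1.36.

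The comparison with the oxygen response asked how the AHR targets varied relative to the genes served by the other major partner of ARNT. That list of 22 genes, among them VEGFA, SLC2A1, BNIP3 and PDK1, was summarised by its mean log2 CPM. The mean was 7.45, 7.03 and 6.99 in Nanoplastics 1, 5 and 2 and 5.55, 5.43 and 5.41 in Nanoplastics 6, 3 and 4. The Control libraries ran without such a gap, at 6.83, 6.60, 6.20, 5.83, 5.25 and 5.08 in Control 2, 6, 3, 4, 5 and 1. The 5 lowest CYP1A1 values, 5.72 to 9.99 CPM, belonged to Nanoplastics 1, 2 and 5 and Control 2 and 6. Those 5 libraries also held the 5 highest means of the oxygen list, 6.60 and above. They held the 5 highest TIPARP values as well, 118 CPM and above. In the other 7 libraries CYP1A1 was at 11.8 CPM or more and TIPARP at 110 CPM or less. The cut at 5 libraries was not planned, and the orders were not the same on either side of it. Nanoplastics 5, second in the oxygen list, had the highest CYP1A1 value of the 5, 9.99 CPM. Control 5, with an oxygen mean of only 5.25, had the lowest CYP1A1 value of the other 7, 11.8 CPM.

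With group means removed, CYP1A1 and the oxygen list had Pearson's r = −0.82 over the 12 libraries (permutation p = 0.00299, adjusted p = 0.0224 over 15 relations) and Spearman's rho = −0.87 (p = 0.00171, adjusted p = 0.0257). Within the Nanoplastics group r was −0.91, and within the Control group −0.64 (n = 6 each). Without Nanoplastics 1 and 4, the libraries farthest from the median of the list, r was −0.75. Leaving out single libraries kept r between −0.89 and −0.78, but the adjusted p was 0.0736 without Nanoplastics 1, 0.0586 without Nanoplastics 3 and 0.0534 without Control 2. The libraries share batches of material in an unknown way, so the permutation p-values may be too small, and a relation within batches could not be computed. The share of all tested genes with an r of this size to the oxygen list was not counted.

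TIPARP had the opposite relation to the oxygen list, at r = 0.82 (permutation p = 0.0113, adjusted p = 0.0423) and rho = 0.78 (p = 0.0150, adjusted p = 0.0748). Here r was 0.97 within the Nanoplastics group and 0.55 within the Control group, and 0.77 without Nanoplastics 1 and 4. The adjusted p of r lay above 0.05, at 0.0512 to 0.0961, after leaving out any single library other than Control 1 or Control 4. In those 10 settings r was 0.78 to 0.86. It was 0.0723 with libraries scaled by their totals alone (r = 0.75). CYP1A1 and TIPARP themselves had r = −0.82 (permutation p = 0.00245, adjusted p = 0.0224) and rho = −0.83 (p = 0.00453, adjusted p = 0.0340). Within groups that r was −0.84 in Nanoplastics and −0.77 in Control libraries, and without Nanoplastics 1 and 3, farthest in CYP1A1, it was −0.77. Its adjusted p was 0.0660 without Nanoplastics 1, 0.0586 without Nanoplastics 3 and 0.0534 without Control 2.

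Other measures of the complexes moved along with these values. With group means removed, the mean log2 CPM of the 12 cumulus and granulosa markers had r = −0.87 with CYP1A1, 0.78 with TIPARP and 0.85 with the oxygen list over the 12 libraries. Their summed level ran from 18580 to 22240 CPM in Nanoplastics and from 18080 to 21040 CPM in Control libraries, and 0 of the 12 markers were at 0. HBA and HBM, the tested genes of the red blood cell marker list, had r = 0.99 with the oxygen list, −0.84 with CYP1A1 and 0.85 with TIPARP. The summed level of all 4 genes of that list in the table was 3.74 to 354 CPM in Nanoplastics and 2.46 to 104 CPM in Control libraries. With HBB at 0 counts in every library, the list does not by itself show that red blood cells were present. The mean of the oocyte markers had r = 0.27 with CYP1A1 and −0.36 with TIPARP, and the total count had −0.27 and 0.37. These correlations are descriptions, and the part of cell composition in the results was not tested.

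**Figure D3:**
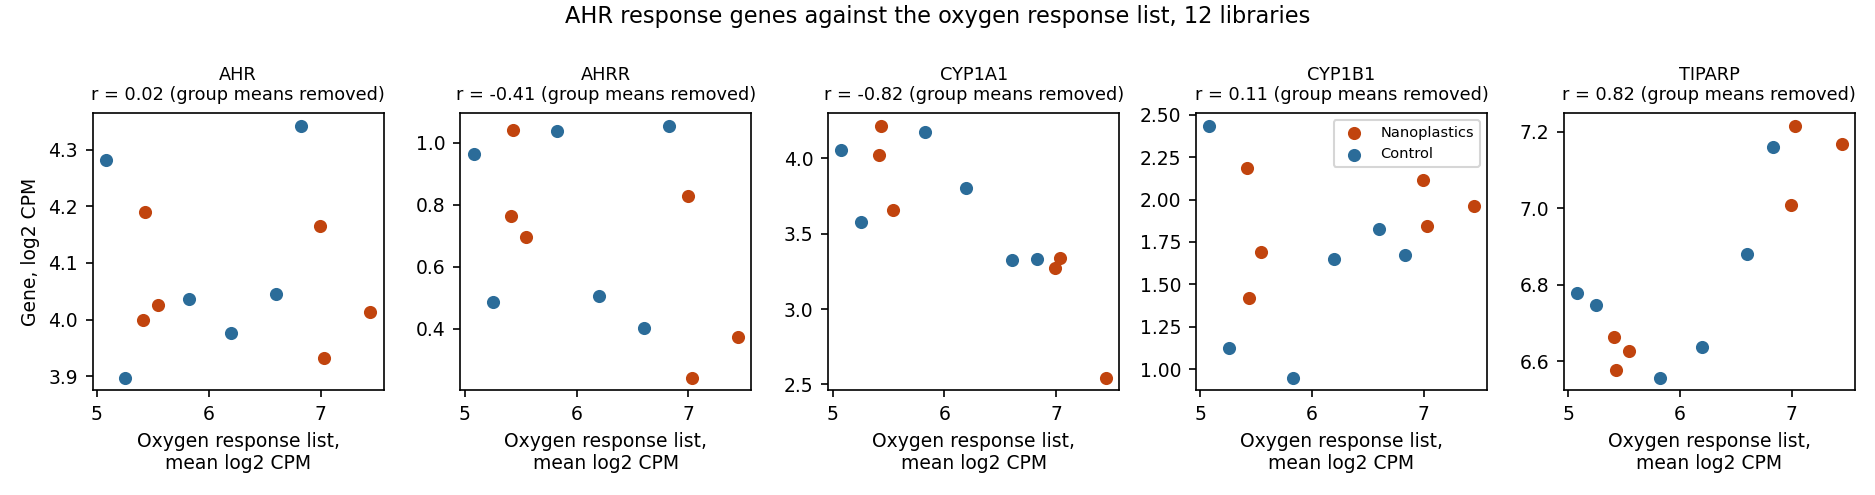
Log2 CPM of each gene (y axis) against the mean log2 CPM of the 22 oxygen response genes (x axis) in 6 Nanoplastics (red) and 6 Control (blue) libraries; r is Pearson's, after removal of the group means. CYP1A1 falls along the axis (r = −0.82) and TIPARP climbs (r = 0.82), and for AHR r is 0.02.

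The other members gave relations to the oxygen list that did not pass. AHR had r = 0.02 (permutation p = 0.935, adjusted p = 0.935). For AHRR r was −0.41 (adjusted p = 0.496) and for CYP1B1 0.11 (adjusted p = 0.827), by the same permutation test. AHR and AHRR were related to each other at r = 0.75 (permutation p = 0.00886, adjusted p = 0.0423), with rho = 0.65 (adjusted p = 0.121). That r was 0.84 within Nanoplastics and 0.73 within Control libraries, and 0.70 without Control 1 and 2, the libraries farthest in AHR. Its adjusted p stayed under 0.05 when the library left out was Nanoplastics 4, Control 1 or Control 4, and was 0.0515 to 0.112 when it was any of the others. The within-group SD of AHRR, 0.30, was close to the 0.28 of counting noise alone, which limits what this r can mean. AHR and CYP1A1 had r = 0.11 (adjusted p = 0.827), and AHR and TIPARP r = 0.18 (adjusted p = 0.778). The remaining 6 relations did not pass either. AHR with CYP1B1, AHRR with CYP1A1, CYP1B1 and TIPARP, and CYP1B1 with TIPARP, had r of 0.40, 0.58, −0.05, −0.38 and 0.34 in that order, and CYP1A1 with CYP1B1 had −0.18. The smallest adjusted p among them was 0.164 in the permutation test, for AHRR and CYP1A1.

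The genes most like each member across the 12 libraries were picked by Pearson's r of log2 CPM with group means removed, over all tested genes. For CYP1A1 these were ERBB2, a receptor tyrosine kinase of the EGF receptor family (r = 0.96), KIF1C, a kinesin motor (0.96), and PDCD11, a ribosome assembly factor (0.96). KIF1C averaged 195 ± 33.3 CPM in Nanoplastics and 208 ± 17.4 CPM in Control libraries (SD, n = 6 each). For TIPARP they were the zinc finger protein ZBTB38 (0.96), the histone methyltransferase NSD3 (0.96) and the scaffold protein STRN (0.95). For AHR they were FAM83H (0.92), the Hippo kinase LATS2 (0.90) and the orphan nuclear receptor NR2F6 (0.89). For AHRR they were the proline-degrading enzyme ALDH4A1 (0.90), the collagen gene COL2A1 (0.89) and the peptide deformylase PDF (0.89). For CYP1B1 they were the mannosyltransferase ALG1 (0.87), HERPUD2 (0.87) and LRATD1 (0.86). The highest r among 12311 genes is large by selection, so these values are descriptions.

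The other genes of the pathway were compared next, by lists of known function, to show whether any step around the receptor differed between the groups. In none of the 7 lists did a gene pass over all genes tested, where the background is 0% called. An unadjusted p under 0.05 (edgeR) was held by 1 of 16 tested genes of the other AHR targets and xenobiotic enzymes. In the kynurenine and indole route it was 1 of 6, and in each other list 0. Over all tested genes the share was 2.1%. The median log2 fold change over all tested genes was 0.00133, with 6217 values positive and 6094 negative. With libraries scaled by their totals alone, the median over all tested genes was lower, at −0.0335. The counts of positive genes given below for that scaling are to be read against this shift of all genes.

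The AHR complex and its cofactors had 10 of 20 tested genes positive and 10 negative and a median of 0.000770. With libraries scaled by their totals alone, 7 of the 20 were positive. ARNT, the partner of AHR, had 43.1 ± 4.98 CPM in Nanoplastics and 40.5 ± 3.20 CPM in Control libraries (SD, n = 6 each), a log2 fold change of 0.09 (95% interval −0.09 to 0.26). HSP90AB1, the chaperone with the highest CPM of the list, had 0.10 (−0.05 to 0.24).

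Of the other AHR targets and xenobiotic enzymes 16 of 21 genes in the table were tested, 9 positive and 7 negative, with a median of 0.03, and 6 positive with totals alone. The log2 fold change of NQO1, a quinone reductase, was −0.20 (95% interval −0.82 to 0.41), and POR, which passes electrons to P450 enzymes, had −0.04 (−0.18 to 0.09). F3, the tissue factor gene, was the member with an unadjusted p under 0.05 (0.0245; edgeR, adjusted p = 0.999), at 27.4 ± 3.66 CPM in Nanoplastics and 32.5 ± 3.66 CPM in Control libraries (SD, n = 6 each). LTBP1, which had the highest CPM of the list, had a value of 0.03 (−0.12 to 0.18).

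The kynurenine and indole route, which makes AHR ligands from tryptophan, was sparsely expressed. Only 6 of 12 genes were tested, and IDO2 and KMO had 0 counts in all 12 libraries. TDO2 and IDO1, the enzymes that open the tryptophan ring, were below the count filter, IDO1 at 0.429 ± 0.688 CPM in Nanoplastics and 0.162 ± 0.139 CPM in Control libraries (SD, n = 6 each). All 6 tested genes had negative values, with a median of −0.11, and 0 passed. The median was −0.05 without Control 5, −0.18 without Control 4 and −0.04 without the count filter, where 3 genes had positive values. KYAT1, an aminotransferase, had −0.50 (SE 0.20, unadjusted p = 0.0252; edgeR, adjusted p = 0.999), at 1.23 ± 0.193 CPM in Nanoplastics and 1.75 ± 0.395 CPM in Control libraries (SD, n = 6 each). IL4I1, an amino acid oxidase whose products bind AHR, had −0.02 (95% interval −0.45 to 0.41), and KYAT3, with the highest CPM of the list, had −0.03 (−0.20 to 0.14).

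Among the bHLH-PAS relatives of AHR, 9 of 13 genes in the table were tested, 5 positive and 4 negative, with a median of 0.01, and 4 positive with totals alone. The value of HIF1A, with the highest CPM of the list, was 0.06 (95% interval −0.08 to 0.20), and EPAS1, the second oxygen-regulated subunit, had −0.02 (−0.21 to 0.17). The writers and erasers of mono-ADP-ribose, the modification that TIPARP makes, had 7 of 14 tested genes positive, or 3 with totals alone, and PARP10 had a value of −0.07 (−0.28 to 0.13). Ovarian genes reported as AHR-regulated in other species had 3 of 9 tested genes positive, or 2 with totals alone, and a median of −0.03. CCND2, a cyclin of granulosa cell proliferation with the highest CPM of that list, had −0.12 (−0.34 to 0.10). LHCGR, the luteinising hormone receptor, was below the count filter.

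The oxygen response list had 20 of 22 genes positive and a median log2 fold change of 0.38, but 0 passed and 0 had an unadjusted p under 0.05. Its mean log2 CPM was 6.31 ± 0.94 in Nanoplastics and 5.97 ± 0.71 in Control libraries (SD, n = 6 each). The median was 0.13 without Nanoplastics 1, with 18 of 22 genes positive, and at most 0.55 with another library left out. SLC2A3, a glucose transporter with the highest mean CPM of the list over all 12 libraries, had a value of 1.46 with a wide interval of −0.73 to 3.64. In Control libraries its mean of 485 CPM was below those of ADM, 585 CPM, and VEGFA, 566 CPM. With the mean of this list as a covariate, a fit chosen after the data were seen, the log2 fold change of CYP1A1 was −0.03 (SE 0.15) and that of TIPARP −0.01 (SE 0.08). The values of AHR and CYP1B1 in that fit were −0.05 and 0.20.

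**Figure D4:**
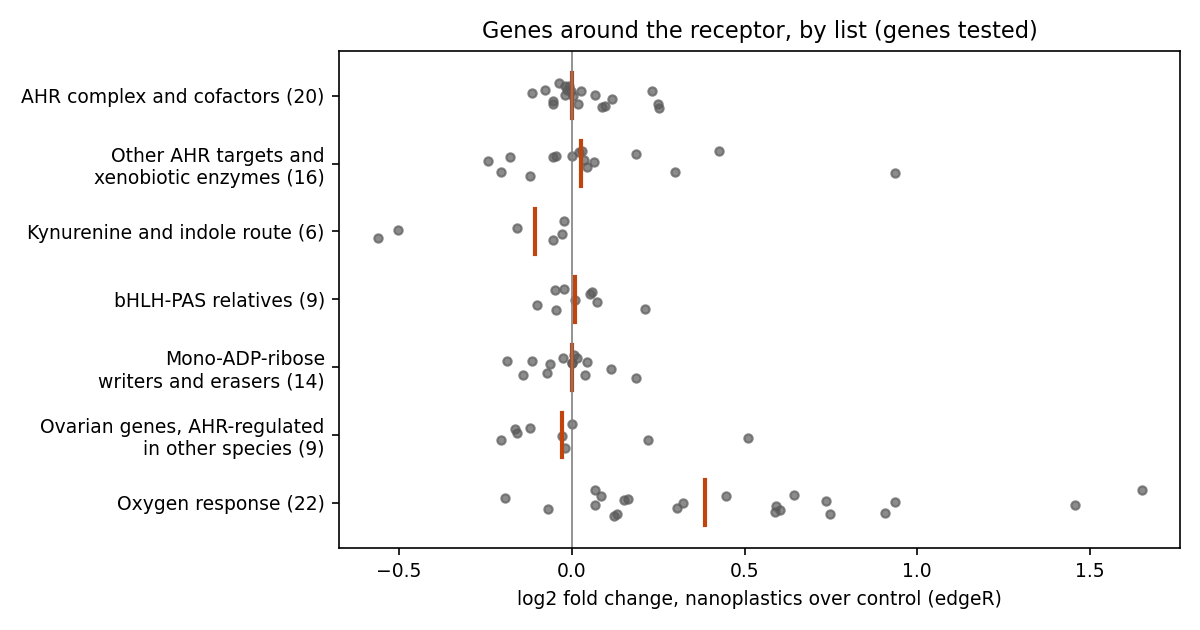
Log2 fold change (x axis, nanoplastics over control, edgeR) of each tested gene of the 7 lists around the receptor; each point is a gene, the red bar is the list median and the number in brackets counts the genes tested. The median is within 0.11 of 0 for every list other than the oxygen response, where it is 0.38 over all 12 libraries and 0.13 without Nanoplastics 1.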

How the data were processed

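RNA of 12 groups of bovine cumulus-oocyte complexes was read in pairs of 150 bases per the labels' protocols. The submitters' processing notes name Trim Galore 0.4.5, DESeq2 and STAR 2.5.4b but not what each was used for. The genome build, annotation, counter and strand setting: not given in the sources used here. The authors deposited raw counts per gene, log2 values that equal log2 of the count plus a constant per library, and a table of the contrast with a p-value and adjusted p-value, log2 fold changes, and for each group a signal column. That deposited signal column equals the group's mean raw count within 0.01 for 99.9% of genes. The table's 4 columns of other groups were not used.

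Of 18057 gene rows, 74 exact copies were dropped. filterByExpr (minimum count 10, minimum total 15) kept 12311 genes. After TMM scaling, edgeR 4.0.16 in R 4.3.3 gave the main test (glmQLFTest on a glmQLFit model, two-sided, Benjamini-Hochberg, threshold 0.05). Alternatives used DESeq2 1.42.0 and limma 3.58.1. Log2 CPM used a prior count of 2. All 5 genes passed the filter, so the exact test planned for genes below it was not needed. Correlations used 100000 permutations within groups (numpy 2.4.6). The procedure was tested on simulated counts.

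The 5 genes, the lists and the naming rule were chosen with earlier results of these data known. The rule took the 5 genes, the list members with an unadjusted p under 0.05 or the highest CPM, and the 3 genes most like each of the 5; other list members are named for their role, after their values were seen. The labels call the samples independent replicates, though the batch of each is not known. The p-values set differences and correlations against the spread between these samples. The RefSeq gene table (ARS-UCD2.0) gave names of neighbouring and overlapping genes only.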

Additional observations from a re-analysis of the deposited data

Results flagged for a closer look

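Each library was compared with the others of its group for the 5 genes and the means of the 7 lists, 24 groups of values in all. When the distance of an end library from the next one was set against the whole range of its group, 1 of them stood out, and chance gives about 1 in 20. Nanoplastics 4 had a mean log2 CPM of 4.24 for the other AHR targets and xenobiotic enzymes, below the 4.45 to 4.55 of the other Nanoplastics libraries. In the Control group the lowest value of that mean was 4.15, in Control 4. None of the 5 genes had a library set apart in this way.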

How the results depend on the processing

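In every setting run 0 genes were called, and the 5 fold changes stayed short of the threshold. Leaving out 1 library moved the log2 fold change of CYP1A1 between −0.31 and 0.00260, of CYP1B1 between 0.09 and 0.42, of TIPARP between 0.0155 and 0.17, of AHRR between −0.20 and −0.03 and of AHR between −0.09 and −0.00326; the oxygen covariate, chosen after seeing the data, put TIPARP at −0.0102. With the replicate number as a block 0 genes were called (288 at an unadjusted p under 0.05), and CYP1A1 had −0.19 and TIPARP 0.08. Whether equal numbers mark paired samples is not known from the labels. Same-numbered libraries had correlations of −0.26 to 0.43, and 1 of 6 Nanoplastics libraries was most like its own number. Such correlations cannot decide how the samples were collected. Genes at an unadjusted p under 0.05 numbered 141 without Nanoplastics 1 and 482 without Nanoplastics 4. Counts of positive list members moved for the kynurenine route (3 without the count filter, 0 to 1 with a library left out), the bHLH-PAS relatives (8 without the filter) and the mono-ADP-ribose list (3 with totals only, 4 to 7 with a library left out). With totals only they were 7 for the AHR complex and 6 for the other AHR targets, and with a library left out 8 to 12 and 7 to 11. Over all tested genes the median log2 fold change with totals only was −0.0335, against 0.00133 in the main fit. The median of the oxygen list was 0.22 with the block and ran from 0.13 to 0.55, and that of the kynurenine route from −0.18 to −0.05 with a library left out. Without the filter more genes of these lists were tested. Of the correlations, the oxygen list and AHR had −0.22 with totals only, −0.0114 without removal of group means and −0.25 to 0.23 with a library left out; the oxygen list and TIPARP had 0.75 with totals only and 0.78 to 0.87 with a library left out. Further ranges with a library left out were −0.89 to −0.78 for the oxygen list and CYP1A1, −0.0220 to 0.53 for the oxygen list and CYP1B1, and −0.87 to −0.78 for CYP1A1 and TIPARP. They were 0.71 to 0.85 for AHR and AHRR, −0.0675 to 0.34 for AHR and CYP1A1, −0.17 to 0.37 for AHR and TIPARP, and −0.32 to 0.16 for AHRR and CYP1B1. For CYP1A1 and CYP1B1 the range was −0.48 to −0.0021, for AHR and CYP1B1 0.14 to 0.59, for AHRR and CYP1A1 0.47 to 0.76, for AHRR and TIPARP −0.69 to −0.20, for CYP1B1 and TIPARP 0.21 to 0.48, and for the oxygen list and AHRR −0.61 to −0.29. Apart from the settings named, the cause was not tested. Of the 5 genes AHRR had the fewest counts, 19 to 39 per library.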

Other observations

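The genes that flank the 5 members in the RefSeq gene table were looked at after the values of the members had been seen. EXOC3 and PDCD6, on either side of AHRR, had r = 0.58 and 0.29 with AHRR over the 12 libraries with group means removed. EDC3, beside CYP1A1, had r = 0.48 with it, at 63.4 ± 3.80 CPM in Nanoplastics and 65.9 ± 8.04 CPM in Control libraries (SD, n = 6 each). For CYP1B1 the neighbours RMDN2 and ATL2 had r = 0.14 and 0.11, for TIPARP the neighbour SSR3 had −0.50, and for AHR the neighbour SNX13 had −0.17. None of these neighbours was called between the groups (edgeR, adjusted p = 0.999 for each).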
